A study of Mus musculus with 8 samples.

Results

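A set of 9 genes for secreted, surface or associated proteins used as markers of the meninges was followed in 2 regions of the head mesenchyme of the mouse embryo. They were Ptgds, Angptl2, Mgp, Nppc, Ngfr, Dpp4, Cldn11, Fxyd5 and S100a6, picked by symbol, and all 9 had a row among the 23420 genes of the table. Early migrating mesenchyme (EMM) and supraorbital mesenchyme (SOM), the tissue above the eye, came from wild type C57BL/6 embryos at E12.5, with no treatment or transgene. Each group had 4 libraries, and the tissue of 4 to 5 embryos was pooled for each. Head pieces from apical and basolateral areas were digested with dispase (3 U/ml, 37 C, 10 min) and freed of surface ectoderm and brain, so each library held a mixture of the cell types left in the mesenchyme. The sources used here do not state if EMM and SOM pools share embryos.

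The meninges are the membranes that wrap the brain, and over the forebrain they arise largely from neural crest mesenchyme. Their arachnoid layer carries a barrier of tight junctions, and their cells release proteins into the cerebrospinal fluid and signals to the brain below and the skull above. Several of the genes followed here mark layers of the mature or late fetal meninges, and some are also made by other cells. Mgp is made by cartilage and vascular smooth muscle, Ngfr by neural crest derivatives and pericytes, and Fxyd5 and S100a6 by many epithelial and stromal cells. S100a6 is a calcium-binding protein found mainly inside the cell, so neither secreted nor surface describes it strictly.

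Depth recovered per library was 12.7 to 22.4 M reads for EMM and 16.8 to 33.7 M for SOM. EMM and SOM lay apart on the first principal component, which took up 85.4% of the variance. Of 14249 genes tested, 10278 differed between EMM and SOM (limma, Benjamini-Hochberg adjusted p below 0.05), and the median difference over all of them was -0.01 on the log2 scale. Of 12 head mesenchyme markers, 11 passed the filter on low values, and Tcf21 was at 0 in every library. The labels name no batch.

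Of the 9 genes, 7 passed the filter of 10 normalized counts in at least 4 libraries, and Ptgds and Nppc did not. Angptl2, Dpp4, Cldn11 and S100a6 rose in EMM relative to SOM, Mgp fell in EMM, and Ngfr and Fxyd5 did not pass the test. The 4 genes higher in EMM compare with 36.1% of all tested genes called higher in EMM, and the single gene higher in SOM with 36.0% called higher in SOM. Both directions together made 5 of 7 genes, against 72.1% of all tested genes, so the share called was near the background. EMM and SOM did not overlap in these 5 genes, against 66.1% of tested genes, with 33.2% of tested genes above SOM in every EMM library and 32.9% below it. In bulk tissue, fewer cells of a type and less RNA per cell cannot be told apart, and this touches each difference given here. Values are normalized counts, that is reads divided by a size factor per library, and differences are log2(normalized count + 1) of EMM minus that of SOM, with its SE.

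**Figure D1:**
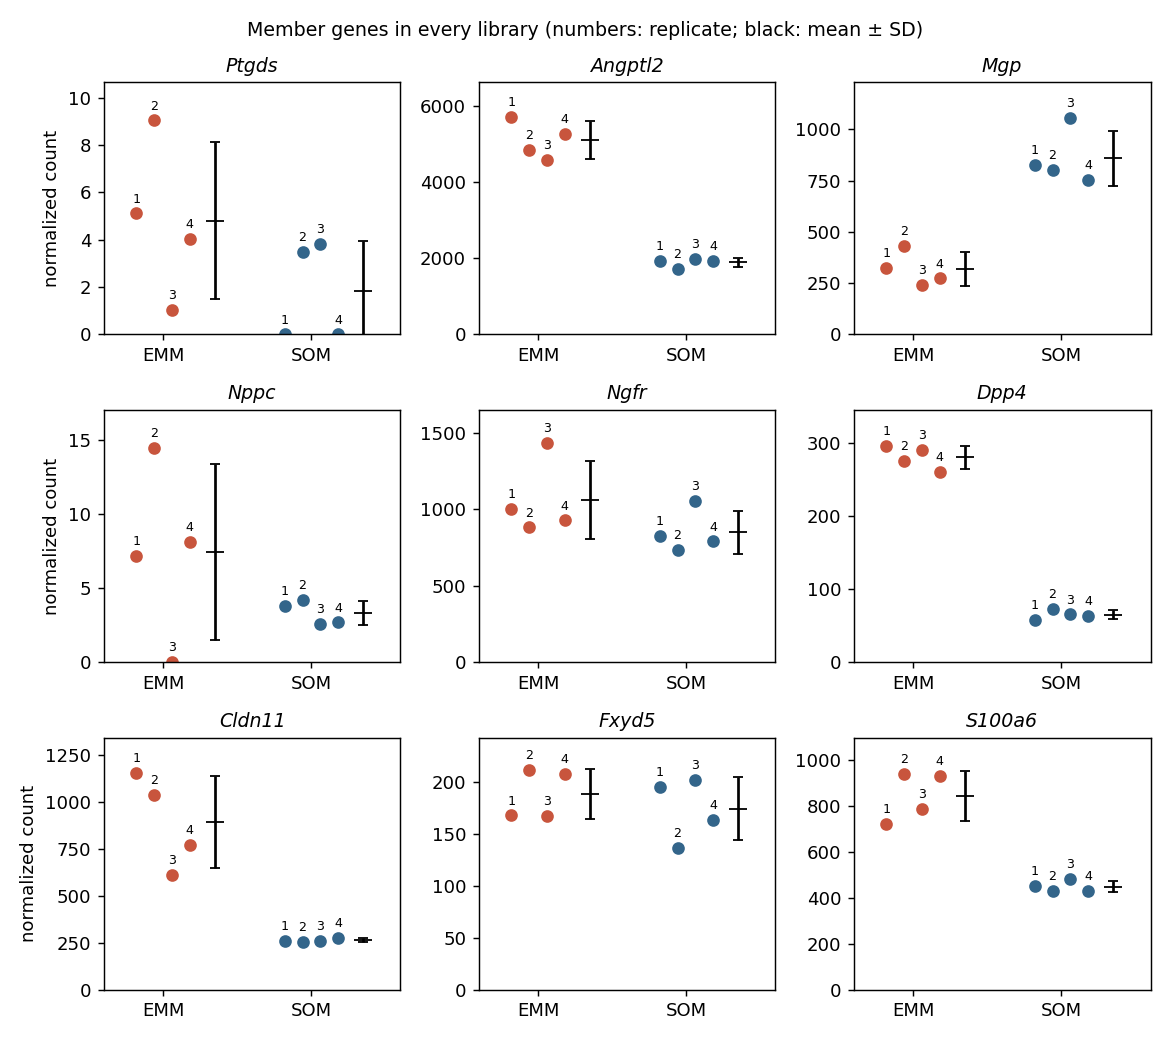
Normalized counts (linear axis from 0, one panel per gene) of the 9 genes in each library, EMM left of SOM; points are libraries with their replicate number and black bars are means with SD (n = 4 each, cut at 0 for Ptgds in SOM). Angptl2, Dpp4, Cldn11 and S100a6 lie higher in all 4 EMM libraries, Mgp lies higher in all 4 SOM libraries, and the remaining genes overlap.

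Among the genes of secreted proteins, Angptl2 rose in EMM. It encodes angiopoietin-like protein 2, a secreted glycoprotein known for roles in inflammation and tissue remodelling. EMM replicates 1 to 4 held 5704, 4829, 4580 and 5267 normalized counts, against 1934, 1721, 1985 and 1923 in SOM replicates 1 to 4. Every EMM library stood above every SOM library, and the SOM values were tight. The means were 5095 ± 495 in EMM and 1891 ± 117 in SOM (SD, n = 4 each). The difference was 1.43 (SE 0.07), or 2.69-fold higher in EMM, with a limma adjusted p of 5.51e-11. The gene lies on the plus strand at chr2:33216069-33247717 of GRCm38, inside Ralgps1 on the opposite strand, with 0 shared exonic bases.

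Mgp, matrix Gla protein, is a vitamin K-dependent inhibitor of calcification, and it went the other way. The EMM libraries, in order of replicate, held 323, 432, 243 and 273 normalized counts, against 825, 803, 1056 and 753 in SOM. The highest EMM library was below the lowest SOM library. Mgp averaged 318 ± 83.1 in EMM and 859 ± 135 in SOM (SD, n = 4 each). Its difference was -1.45 (SE 0.19), or 2.74-fold lower in EMM, with a limma adjusted p of 0.000127. Mgp lies at chr6:136872435-136875823 on the minus strand. The summed level of 12 cartilage markers was 38893 to 41661 in EMM and 45253 to 70828 in SOM. Col2a1, at means of 24742 in EMM and 38532 in SOM, made up most of that sum. Col2a1 is named after its values were seen. Of the 11 tested, 7 were higher in SOM, 1 was higher in EMM and 3 did not pass the test. Over all tested genes, 36.0% were higher in SOM and 36.1% in EMM. The part of cartilage cells in the Mgp difference was not tested. The summed level of 12 pericyte and smooth muscle markers ran the other way, at 57541 to 65019 in EMM and 8565 to 10486 in SOM. Acta2, at means of 38221 in EMM and 2167 in SOM, made up most of the sum in EMM. Of the 11 tested, 10 were called higher in EMM and 1 higher in SOM.

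Ptgds encodes the lipocalin-type prostaglandin D synthase, which is abundant in cerebrospinal fluid and is made by leptomeninges and choroid plexus. It was near the limit of detection. The 4 EMM libraries held 5.11, 9.04, 1.05 and 4.04 normalized counts, against 0, 3.50, 3.83 and 0 in SOM. These are 14 reads in EMM and 11 reads in SOM, with SOM replicates 1 and 4 at 0, where 3 reads would come to 3.78 and 2.0 normalized counts. The means were 4.81 ± 3.30 in EMM and 1.83 ± 2.12 in SOM (SD, n = 4 each), and the groups overlapped. The ratio of reads per total was 1.93 for EMM over SOM, with a 95% interval of 0.814 to 4.70 that covers counting error only. A 2-sided exact permutation test of the means gave p = 0.143, where 0.0286 is the smallest p that 4 against 4 allows. With these few reads a difference was neither detected nor excluded. Ptgds, listed as a meningeal marker, was close to absent from both tissues at this stage. Ptgds lies at chr2:25466709-25470046 on the minus strand.

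Nppc encodes C-type natriuretic peptide, a secreted hormone that stimulates the growth of cartilage-derived bone through its receptor Npr2. It was about as sparse. Its normalized counts were 7.15, 14.5, 0 and 8.08 in EMM replicates 1 to 4, and 3.78, 4.20, 2.55 and 2.67 in SOM. The 21 reads in EMM came from 3 of 4 libraries, with EMM replicate 3 at 0, where 3 reads would be 3.14 normalized counts. In SOM, the 17 reads were spread over all 4 libraries. The means of 7.42 ± 5.92 in EMM and 3.30 ± 0.814 in SOM (SD, n = 4 each) overlapped in their libraries. The read ratio of EMM over SOM was 1.87 (95% counting interval 0.941 to 3.78), and the exact permutation test gave p = 0.171. The gene lies at chr1:86666291-86670571 on the minus strand.

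Among the surface proteins, Dpp4 showed the largest fitted difference of the 7 tested genes. It encodes dipeptidyl peptidase 4, a membrane serine protease that trims dipeptides from peptide hormones and chemokines. In EMM replicates 1 to 4 its normalized counts were 295, 275, 290 and 260, against 57.9, 72.8, 65.1 and 63.4 in SOM. The libraries of each group were close together and the groups lay far apart. The means were 280 ± 15.9 in EMM and 64.8 ± 6.13 in SOM (SD, n = 4 each), a difference of 2.10 (SE 0.11) or 4.28-fold higher in EMM (95% interval 3.63 to 5.04), with a limma adjusted p of 9.39e-11. Dpp4 lies at chr2:62330073-62412231 on the minus strand. An antisense gene, Gm13561, shares 232 exonic bases with it, and since strand use in counting is not stated, reads from those bases could belong to either.

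Cldn11 encodes claudin 11, the tight junction protein of the arachnoid barrier, of central myelin and of the Sertoli cell barrier. Its normalized counts were 1153, 1036, 611 and 770 in EMM replicates 1 to 4, against 259, 253, 258 and 277 in SOM. All EMM libraries were higher, but EMM replicates 1 and 2 stood well above replicates 3 and 4, while the SOM libraries were nearly equal. The means were 892 ± 247 in EMM and 262 ± 10.6 in SOM (SD, n = 4 each). The difference was 1.72 (SE 0.18), or 3.30-fold higher in EMM, with a limma adjusted p of 3.39e-05. The gene lies at chr3:31149920-31164324 on the plus strand.

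Ngfr encodes the low-affinity neurotrophin receptor, which binds all neurotrophins and their precursors. EMM replicates 1 to 4 held 1001, 882, 1437 and 928 normalized counts, against 826, 732, 1053 and 790 in SOM. The groups overlapped, because SOM replicate 3 stood above 3 of the 4 EMM libraries. The means were 1062 ± 255 in EMM and 850 ± 141 in SOM (SD, n = 4 each). The difference of 0.31 (SE 0.18) did not pass, with a limma adjusted p of 0.160, and its 95% interval ran from 0.925-fold to 1.65-fold. Without EMM replicate 3 the difference was 0.15. Ngfr lies at chr11:95568818-95587735 on the minus strand.

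Fxyd5 encodes dysadherin, a single-span membrane protein that modulates the sodium pump and cell adhesion. The 4 EMM libraries stood at 168, 211, 167 and 207 normalized counts, against 195, 136, 202 and 164 in SOM. The ranges of the groups lay largely on top of each other. The means were 188 ± 24.3 in EMM and 174 ± 30.2 in SOM (SD, n = 4 each). The difference of 0.12 (SE 0.13) did not pass, with a limma adjusted p of 0.423, and the 95% interval ran from 0.895-fold to 1.32-fold. The gene lies at chr7:31032722-31042481 on the minus strand and holds the microRNA gene Mir7050, whose 60 bases are shared.

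S100a6 encodes calcyclin, a small calcium-binding protein of the S100 family that binds annexins. Its EMM libraries held 721, 942, 786 and 932 normalized counts, against 453, 430, 483 and 429 in SOM. All EMM libraries were above all SOM libraries. The means were 845 ± 109 in EMM and 449 ± 25.3 in SOM (SD, n = 4 each), a difference of 0.90 (SE 0.08) or 1.87-fold higher in EMM, with a limma adjusted p of 8.13e-08. S100a6 lies at chr3:90612882-90624181 on the plus strand.

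**Figure D2:**
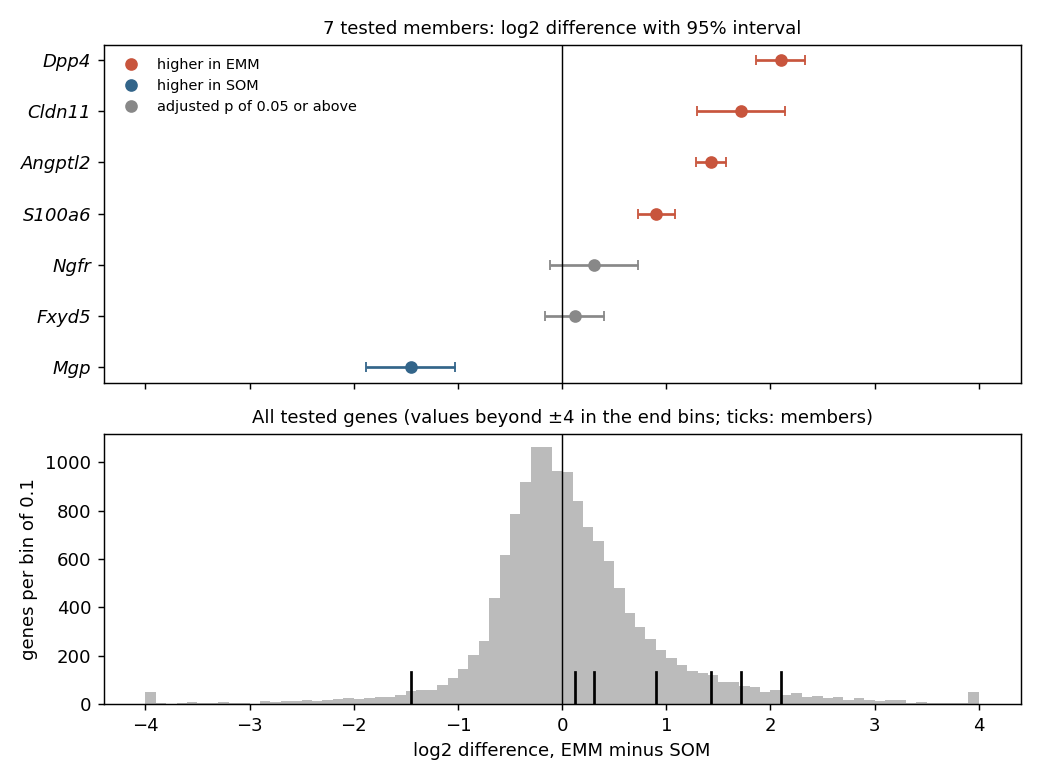
Fitted log2 differences (EMM minus SOM) of the 7 tested genes with 95% intervals, beside the spread of all 14249 tested genes. Dpp4 at 2.10, Cldn11 at 1.72, Angptl2 at 1.43 and S100a6 at 0.90 lie above 0, Mgp at -1.45 lies below, and the intervals of Ngfr and Fxyd5 cross 0.

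The 250 bases before the RefSeq start are printed for the 4 genes that rose in EMM (GRCm38.p6, strand of the gene). They share that direction with 36.1% of all tested genes, and their libraries did not deviate alike within EMM, where replicate 1 lay 0.41 above the group mean for Cldn11 and at -0.22 for S100a6. RefSeq held a promoter for 8 of the 9 genes, all but Mgp. Capitals mark matches to 7 short motifs, chosen after the sequences were seen and searched on both strands, and a match on the opposite strand shows as the reverse complement.
Dpp4, chr2:62412232-62412481, minus strand: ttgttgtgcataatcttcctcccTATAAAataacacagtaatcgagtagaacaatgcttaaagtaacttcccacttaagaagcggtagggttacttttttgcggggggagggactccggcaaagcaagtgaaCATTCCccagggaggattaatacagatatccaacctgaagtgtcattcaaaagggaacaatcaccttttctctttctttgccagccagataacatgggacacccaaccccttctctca
Cldn11, chr3:31149670-31149919, plus strand: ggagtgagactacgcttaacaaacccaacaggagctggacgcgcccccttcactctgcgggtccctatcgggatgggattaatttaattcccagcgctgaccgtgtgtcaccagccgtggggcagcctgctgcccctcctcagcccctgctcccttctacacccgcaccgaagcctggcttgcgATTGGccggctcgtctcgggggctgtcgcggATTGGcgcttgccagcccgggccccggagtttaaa
Angptl2, chr2:33215711-33215960, plus strand: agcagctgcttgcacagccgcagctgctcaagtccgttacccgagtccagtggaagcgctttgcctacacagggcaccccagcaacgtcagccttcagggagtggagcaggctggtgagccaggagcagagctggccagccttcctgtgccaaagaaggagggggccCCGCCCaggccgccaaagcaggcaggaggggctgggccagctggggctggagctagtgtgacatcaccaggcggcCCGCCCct
S100a6, chr3:90612644-90612893, plus strand: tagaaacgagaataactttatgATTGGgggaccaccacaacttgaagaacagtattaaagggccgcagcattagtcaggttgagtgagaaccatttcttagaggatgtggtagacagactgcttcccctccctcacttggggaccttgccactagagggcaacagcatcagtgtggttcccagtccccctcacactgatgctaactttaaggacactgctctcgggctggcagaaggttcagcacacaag
The motifs were the TATA box (TATAAA), the CCAAT box (CCAAT), the GC box (GGGCGG), and the letters bound by forkhead (GTAAACA), homeodomain (TAATTA), AP-1 (TGANTCA) and TEAD (GGAATG) factors. The matches printed do not overlap each other. Dpp4 held TATAAA starting 227 bases before the start and GGAATG on the opposite strand at 118 bases before it, each distance counted to the first base printed. Cldn11 held CCAAT on the opposite strand starting 66 and 35 bases before the start, and S100a6 held it starting 228 bases before. Angptl2 held GGGCGG on the opposite strand starting 83 and 8 bases before the start. Of 32851 promoters of the same length, 12.4% held TATAAA, 33.8% CCAAT, 32.7% GGGCGG and 12.6% GGAATG. None of the 4 windows held the forkhead, homeodomain or AP-1 letters, which 3.17%, 4.84% and 6.75% of promoters held. Their GC content ranged from 43.6% in Dpp4 to 66.8% in Angptl2. No motif was found in all 4.

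Levels of different genes were set side by side per length, as reads per kb of the longest annotated transcript per M reads. In EMM the order of the means was Angptl2 at 62.2, S100a6 at 46.8, Cldn11 at 20.7, Mgp at 19.3, Ngfr at 13.4, Fxyd5 at 2.73, Dpp4 at 2.31, Nppc at 0.309 and Ptgds at 0.157. Angptl2 stood clear of S100a6 there, with lowest library 56.0 against highest 52.4. Cldn11, Mgp and Ngfr overlapped in EMM, as did Fxyd5 and Dpp4. In SOM the order was Mgp at 56.4, S100a6 at 26.9, Angptl2 at 24.9, Ngfr at 11.6, Cldn11 at 6.57, Fxyd5 at 2.73, Dpp4 at 0.578, Nppc at 0.149 and Ptgds at 0.0648. Mgp was therefore the highest of the 9 in SOM and the fourth in EMM. S100a6 and Angptl2 overlapped in SOM. With the merged length of all exons, Ngfr came above Mgp in EMM, at 13.4 against 11.6.

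**Figure D3:**
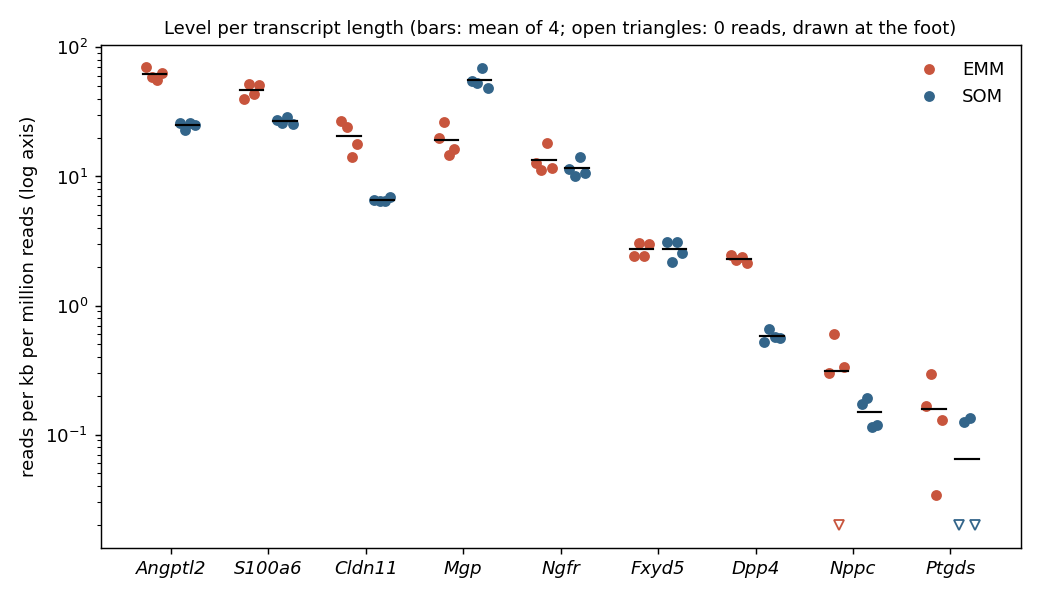
Reads per kb of longest transcript per M reads (log axis) of the 9 genes, with EMM and SOM libraries as points and the group means as bars; open triangles at the foot mark libraries with 0 reads. Angptl2 leads in EMM at 62.2 and Mgp leads in SOM at 56.4, while Ptgds and Nppc are lowest in both.

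Replicates of the same group varied to different degrees among the 9 genes. In EMM the coefficient of variation of Cldn11 was 27.7%, higher than in 98.6% of the 11266 genes with a mean of at least 100, and in SOM it was 4.05%, higher than in 19.56%. Mgp and Ngfr stood about as high in EMM, above 98.47% and 98.15% of those genes, and also in SOM, above 93.4% and 94.46%. Fxyd5 stood above 90.4% in EMM and 95.3% in SOM. The median gene had 5.73% in EMM and 6.62% in SOM. EMM replicate 3 was the lowest of its group for 6 of the 9 genes, namely Ptgds, Angptl2, Mgp, Nppc, Cldn11 and Fxyd5, and the highest for Ngfr. In that library Ptgds had 1 read and Nppc 0, and Fxyd5 stood at 167.3 beside 167.6 in EMM replicate 1. How often EMM replicate 3 is the lowest over all genes was not counted. EMM replicate 2 was the highest for Ptgds, Mgp, Nppc, Fxyd5 and S100a6. EMM replicate 3 also held the highest summed level of red blood cell markers, at 420053 against 148643 to 264450 in the other EMM libraries. It likewise held the highest sum of endothelial markers, at 28513, and the lowest sum of macrophage markers, at 15721. The part of these cells in the spread of the genes was not tested. Without EMM replicate 3, Cldn11 differed by 1.89 and Angptl2 by 1.48.

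**Figure D4:**
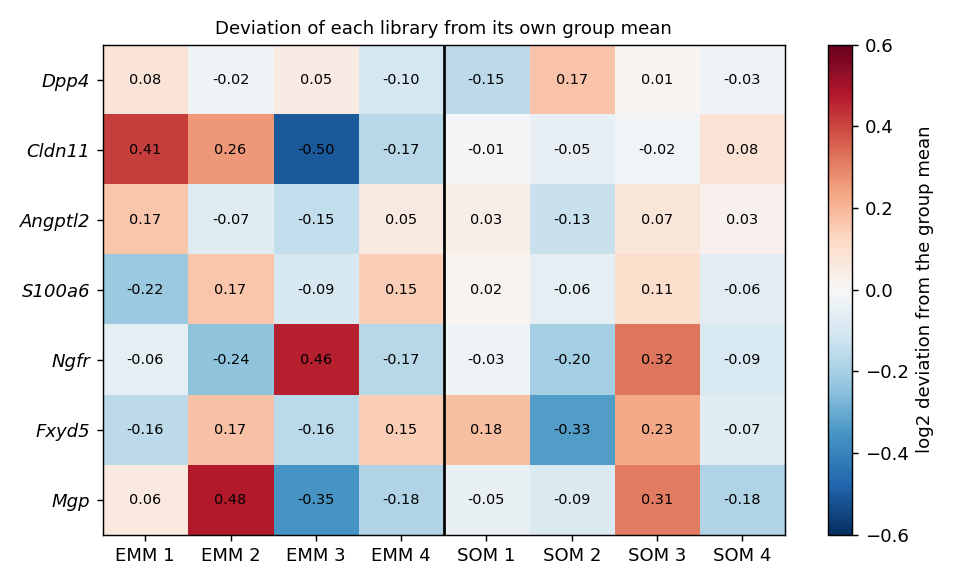
Heat map of the deviation of each library from its group mean (log2 scale, red above and blue below) for the 7 tested genes in rows, EMM libraries left of SOM libraries. EMM replicate 3 lies at -0.50 for Cldn11, -0.35 for Mgp and -0.15 for Angptl2, and at 0.46 for Ngfr.

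Genes with the pattern most like each of the 7 were sought among the 11266 genes with a mean of at least 100, as the smallest root-mean-square distance of centred log2 values over the 8 libraries. The closest to Angptl2 were Cpt1a at 0.07 and Endod1 at 0.08, where the median gene stood at 0.74. Rgs10 at 0.07 and Selm at 0.09 were closest to S100a6, and Efnb2 at 0.10 and Lims2 at 0.11 were closest to Dpp4. Cldn11 was nearest to Prrt4 at 0.14 and Ctss at 0.15, and Mgp to Sult4a1 and 2610019E17Rik, both at 0.16. For Ngfr the nearest were Sh3tc2 and Tie1, both at 0.13, and for Fxyd5 they were Pgap2 at 0.09 and Gpr162 at 0.10. Tie1 encodes an endothelial receptor and Ctss a protease of macrophages and other immune cells. For Ptgds and Nppc the nearest genes lay 0.84 and 0.87 away, too far at so few reads to be named.

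The other genes of the pathways were taken from lists, and each count stands beside the 36.1% called higher in EMM and 36.0% called higher in SOM over all tested genes, whose median difference was -0.01. Of 50 genes of the meningeal layer and leptomeninges, 48 were tested, with 38 called toward EMM, 5 toward SOM, 5 not past the test and a median of 1.62. Igfbp2, an insulin-like growth factor binding protein, differed by 3.28, Zic1, a zinc finger transcription factor, by 3.01 and Tbx18, a T-box transcription factor, by 2.33. Foxc1, a forkhead factor required for meninges, differed by 1.71, and it is named after its value was seen. Nnat at -0.61, Foxp1 at -0.39 and Bmp7 at -0.34 were higher in SOM. This list was drawn up with knowledge of results on these samples, so its direction is not independent evidence.

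For prostaglandins, 20 of 24 genes were tested, with 13 called toward EMM, 4 toward SOM and a median of 0.75. Ptgis, the prostacyclin synthase, differed by 2.15, and Ptgs1, a cyclooxygenase, by 1.65. Hpgds, the other prostaglandin D synthase and known from immune cells, differed by 2.02, with means of 315 in EMM and 76.9 in SOM. The receptors Ptger1 at -1.07 and Ptger4 at -0.69 and the synthase Ptges2 at -0.24 were higher in SOM. Ptges, named after its value was seen, differed by -0.07 with a limma adjusted p of 0.341. Macrophage markers moved with this list. All 15 rose in EMM, and their sum was 15721 to 19749 in EMM and 3482 to 3940 in SOM. Their part in the difference of Hpgds was not tested.

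For tight junctions, 15 of 34 genes were tested, of which 12 including Cldn11 went toward EMM and 1 toward SOM, with a median of 0.58. Without the filter on low values, 4 genes of this list went toward SOM, and the count toward EMM changed by a smaller factor. The junction scaffold genes Cgnl1 and Tjp1 differed by 1.29 and 0.95. Cgn, which encodes cingulin, was higher in SOM, with a difference of -0.59 and a limma adjusted p of 0.0261. That call was lost without EMM replicate 1 (adjusted p = 0.0930), without SOM replicate 2 (0.0676) and without SOM replicate 4 (0.0787). Among 23 claudin genes, only the 6 that passed the filter were tested, and 5 of them were higher in EMM. Among the 5 is the row Cldn25 at 0.36, a symbol that RefSeq lists as a synonym of both Cldnd1 and a claudin pseudogene, so that it may not be a claudin; it is named after its value was seen. The sixth was Cldn5, the endothelial claudin, which is named after its value was seen and differed by 0.14 with a limma adjusted p of 0.391.

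For angiopoietins and their receptors, 11 of 15 genes were tested, of which limma called 9 including Angptl2 higher in EMM and 0 higher in SOM, with a median of 1.28. Toward SOM, 0 had an unadjusted p below 0.05, edgeR called 0 and DESeq2 called 1, and limma called 1 without EMM replicate 4 or without SOM replicate 2. Angpt1, a ligand of the endothelial receptor Tek, differed by 2.66, and the integrin subunits Itgb1 and Itga5 by 1.29 and 0.59. Angpt2 at 2.73 and Angptl4 at 0.87 were also higher in EMM and are named after their values were seen.

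For vitamin K-dependent carboxylation and inhibitors of calcification, 16 of 21 genes were tested, of which 11 went toward EMM and 3 including Mgp toward SOM, with a median of 0.43. Spp1, or osteopontin, differed by 3.15, and Gas6 and Pros1, both vitamin K-dependent ligands of TAM receptors, by 2.0 and 1.30. Ank, a pyrophosphate exporter, at -0.60 and Prrg4 at -0.95 were the others higher in SOM. The carboxylase Ggcx, named after its value was seen, differed by 0.29 with a limma adjusted p of 0.000459.

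For neurotrophins, 19 of 20 genes were tested, with 7 called toward EMM, 6 toward SOM, 6 including Ngfr not past the test, and a median of 0.05. The precursor receptor Sort1 differed by 1.04 and Magee1 by 0.35. The ligand Ntf3 was higher in SOM, at -2.45, with means of 41.5 in EMM and 229 in SOM, and so were Aatf at -0.62 and Sorcs2 at -0.51. Ntrk2 at 2.79 and Ntrk3 at 0.86, tyrosine kinase receptors of neurotrophins, were higher in EMM and are named after their values were seen. Neural crest glia and melanoblast markers were split between the groups, with 9 of 13 tested genes higher in SOM and 4 higher in EMM. Over all tested genes, 36.0% were higher in SOM and 36.1% in EMM. Sox10 averaged 4.35 in EMM and 513 in SOM. Kit, at 729 in EMM and 299 in SOM, and Ednrb, at 751 and 214, went the other way. The summed list was 1709 to 2091 in EMM and 1690 to 1977 in SOM. The part of these cells in the Ngfr values was not tested.

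For S100 proteins and annexins, 20 of 27 genes were tested, of which 12 including S100a6 went toward EMM and 4 toward SOM, with a median of 0.34. All 6 annexins on this list were higher in EMM, among them Anxa1 at 1.45 and Anxa6 at 0.74, and S100a11 differed by 0.66. Annexins outside the list were not counted. S100b, a marker of glia and cartilage, at -2.40, Ager, a receptor of S100 proteins, at -0.94 and Cacybp, the calcyclin-binding protein, at -0.45 were higher in SOM. S100a10, named after its value was seen, differed by 0.06 with a limma adjusted p of 0.424.

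For dipeptidyl and prolyl peptidases and DPP4 partners, 17 of 22 genes were tested, of which 9 including Dpp4 went toward EMM and 3 toward SOM, with a median of 0.22. Fap, the closest relative of Dpp4 and known from activated fibroblasts, differed by 2.0, with means of 335 in EMM and 84.1 in SOM. Prcp, a prolyl carboxypeptidase, differed by 1.05 and Igf2r by 0.54. Npy, a neuropeptide that DPP4 can trim, had 3 reads in EMM and 203 in SOM. Cav1 at -0.68 and Dpp6 at -0.37 were also higher in SOM. The Dpp6 call was lost without EMM replicate 3 (adjusted p = 0.0506) and without SOM replicate 2 (0.0577).

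For natriuretic peptides, 12 of 16 genes were tested, with 8 called toward EMM, 1 toward SOM and a median of 0.73. None of the 3 peptide genes, Nppc among them, passed the filter, whereas all 3 receptors did. Npr1 differed by 1.83, the cyclic GMP kinase Prkg1 by 1.16 and the phosphodiesterase Pde3a by 2.64, while the kinase Prkg2 was higher in SOM at -1.86. The clearance receptor Npr3 averaged 2981 in EMM and 353 in SOM, a difference of 3.10. Npr2, the signalling receptor of C-type natriuretic peptide, averaged 2086 in EMM and 2034 in SOM and differed by 0.04 with a limma adjusted p of 0.514. Npr2 and Npr3 are named after their values were seen.

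For FXYD proteins and the sodium pump, 11 of 17 genes were tested, with 5 called toward EMM, 1 toward SOM, 5 including Fxyd5 not past the test, and a median of 0.17. Fxyd6, another member of the FXYD family, differed by 0.52. Fxyd7 was higher in SOM, with 8 reads in EMM and 284 in SOM. Atp1b2, named after its value was seen, differed by 2.04.

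**Figure D5:**
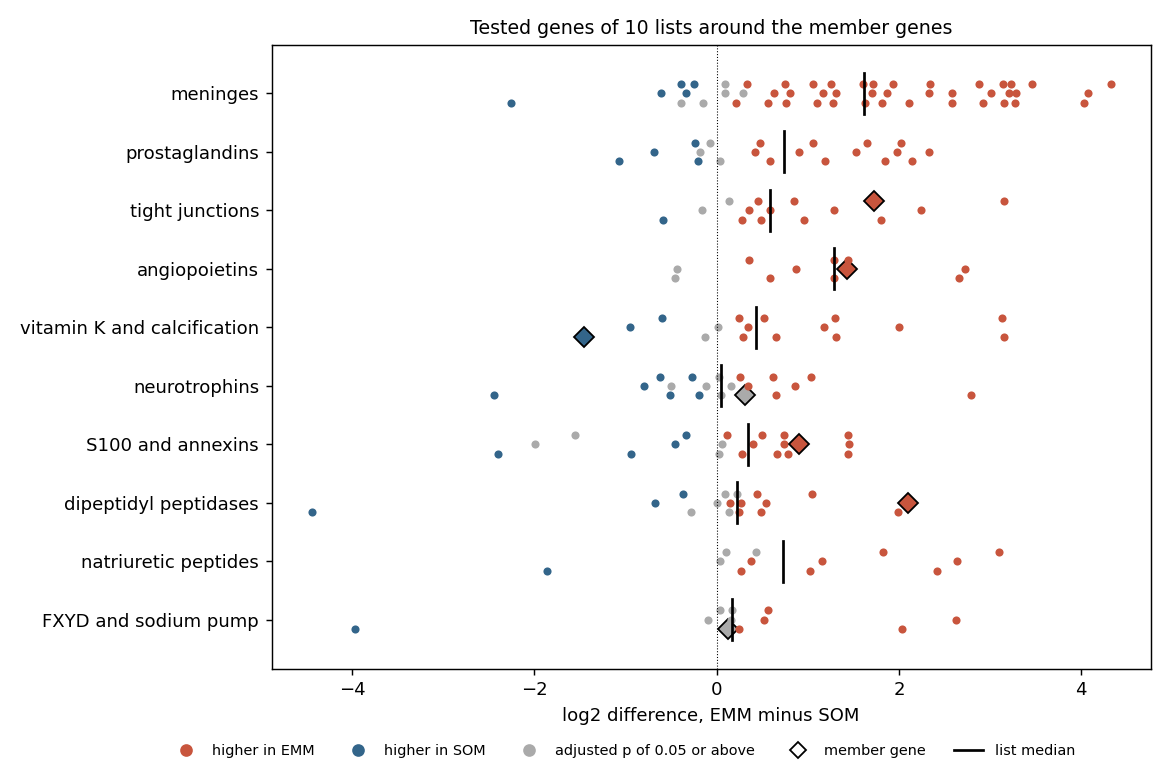
Fitted log2 differences (EMM minus SOM) of the tested genes in the 10 pathway lists, with the followed genes as diamonds and list medians as bars. The meninges list has the highest median at 1.62 and the neurotrophin list the lowest at 0.05.

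Other cell types in the dissected tissue were followed by their own markers. Pericyte and smooth muscle markers had 10 of 11 tested genes higher in EMM, with a median of 1.98. Red blood cell markers had 9 of 9 higher in EMM, with sums of 148643 to 420053 in EMM and 79757 to 96012 in SOM, and Hba-a1, Hba-a2 and Hbb-b1 were listed at 0. Endothelial markers had 9 of 15 higher in EMM and 4 higher in SOM, with sums of 22085 to 28513 in EMM and 17461 to 20433 in SOM. Surface ectoderm markers summed to 4257 to 4645 in EMM and 1639 to 2150 in SOM, with 3 of 11 higher in EMM, a median difference of -0.0026 and 8 genes not past the test. Cdh3, at means of 3515 in EMM and 1488 in SOM, made up most of that sum, and Krt8 and Cdh1 were the others higher in EMM. Cdh1 is named after its values were seen. Markers of brain progenitors and neurons summed to 844 to 1477 in EMM and 3249 to 3655 in SOM. Bone lineage markers had 8 of 10 tested genes higher in SOM, with sums of 2639 to 3156 in EMM and 6228 to 7789 in SOM. The part of any of these cells in the differences of the 9 genes was not tested.

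In the authors' deposited table the log2 fold of EMM over SOM was 2.06 for Dpp4, 1.69 for Cldn11, 1.42 for Angptl2, 0.90 for S100a6 and -1.38 for Mgp, each with a deposited adjusted p below 0.05, which 29.1% of genes had toward EMM and 28.1% toward SOM. The authors' deposited table gave 0.31 for Ngfr (adjusted p = 0.165), 0.11 for Fxyd5 (0.577), 0.61 for Ptgds (0.306) and 0.68 for Nppc (0.231). Of 17851 genes with an adjusted p in the authors' deposited table, 57.2% were below 0.05.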

How the data were processed

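Total RNA of 4 EMM and 4 SOM pools was sequenced. Tools listed in the submitters' processing notes are STAR, bcl2fastq and DESeq2, with no versions, on build mm10; annotation, read counter and strand use are not stated. For each library the authors deposited a gene signal, the normalized count, that is reads over a size factor per the file headers. Their table also holds a mean normalized count, a log2 fold change of EMM over SOM with its standard error, a Wald score and p-values, all deposited by the authors. In every library 100% of values were whole multiples of the smallest value, within 1 ppm, so reads were recovered.

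Genes with at least 10 normalized counts in at least 4 libraries were kept (14249 of 23420; 4477 had no reads). The scale was log2(normalized count + 1), which understates the change of low genes, and all 8 libraries were fitted with limma 3.58.1 in R 4.3.3 (trend, robust, 2-sided), with Benjamini-Hochberg adjustment over the 14249 genes and a threshold of 0.05. Replicates are pools, and p-values measure the spread between them; chi-square per degree of freedom between replicates was 3.57 to 18.1, so no pair of libraries agreed within sampling noise. Alternatives were edgeR 4.0.16 (quasi-likelihood) and DESeq2 1.42.0 on recovered reads, other pseudocounts, filters and scaling, a replicate block, and libraries left out. With edgeR, 5058 genes went toward EMM and 5252 toward SOM. Same-numbered EMM and SOM libraries are not stated to share embryos. The model was tested on simulated data.

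The 9 genes, the 20 gene lists and the tests were chosen with earlier results of these data known. 3 list symbols had no row and were not analysed here. Genes were named by a rule: the 9 genes, up to 3 per direction with the lowest adjusted p in each pathway list, up to 2 in each cell type list, and the 2 genes most like each of the 9; further genes are marked where named, and some genes that the rule takes are not reported here. Coordinates and lengths came from GENCODE M21 and promoters from RefSeq, both on GRCm38. The intervals of the read ratios of Ptgds and Nppc and the floors of 3 reads cover counting error only. The 95% intervals of the limma differences rest on the spread between pools.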

Additional observations from a re-analysis of the deposited data

Results flagged for a closer look

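In 7 of 272 groups of 4 libraries examined, a single library stood apart from the other 3 by more than Dixon's 95% critical value; chance alone gives this in about 1 of 20 groups. None of the 9 genes was among them. Ager stood at 149.99 normalized counts in its highest SOM library, Tjp1 at 3551 in its highest SOM library, Anxa6 at 22457 in its highest EMM library, Zic1 at 11298 in its highest EMM library and Sult4a1 at 70.5 in its highest EMM library. The summed level of neurotrophin genes reached 60422 in the highest EMM library, and that of neural crest glia and melanoblast markers reached 2091.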

How the results depend on the processing

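The 4 genes higher in EMM and the 1 higher in SOM kept their calls under every alternative run: edgeR and DESeq2 on recovered reads, a pseudocount of 5, no filter, a filter at 50, TMM scaling, the replicate block, each library left out, and EMM replicates 2 and 3 with SOM replicate 4 left out. Over these the difference ran from 1.37 to 1.55 for Angptl2, 2.03 to 2.15 for Dpp4, 1.58 to 1.89 for Cldn11, 0.85 to 0.98 for S100a6 and -1.61 to -1.34 for Mgp. Genes called with 1 library left out numbered 4962 to 5269 in EMM and 4885 to 5097 in SOM. Same-numbered EMM and SOM libraries deviated from their group means with correlations of 0.13, 0.01, 0.04 and -0.02. Such correlations, taken over all tested genes, cannot show whether same-numbered pools share embryos, so pairing remained undecided. With a replicate block 5146 genes went toward EMM and 5103 toward SOM. Ngfr passed there, with a limma adjusted p of 0.000485, which made 5 of the 9 genes higher in EMM. The other alternatives for Ngfr gave adjusted p of 0.0657 to 0.320. Fxyd5 gave 0.01 without SOM replicate 2 and 0.20 without SOM replicate 3, and passed under none. Gpr162, near 0 in the fit, changed sign without EMM replicate 2 (-0.0163) and without SOM replicate 2 (-0.0756), with 0.0835 the highest value when 1 library was left out; the cause was not tested. Leaving out those 3 together gave an adjusted p of 0.218 for Dpp6. Without the filter, Ptgds differed by 1.22 (limma adjusted p = 0.109) and Nppc by 0.46 (0.599). Depth limits Ptgds and Nppc, with 14 and 21 reads in EMM and 11 and 17 in SOM. A difference was neither detected nor excluded for either gene.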

Other observations

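Ptgdr, a receptor of prostaglandin D2, did not pass the filter on low values and had 53 reads in EMM and 8 in SOM, with means of 16.9 ± 7.57 normalized counts in EMM and 1.78 ± 1.37 in SOM (SD, n = 4 each). It is named after its values were seen.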
